A study of Mus musculus with 14 samples.

Results

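The genes described here are 9 interferon response genes, Ifit1, Ifit3, Irf7, Irf9, Isg15, Stat2, Oasl2, Bst2 and Ifih1, measured by RNA-seq in the mouse hippocampus. They were chosen by gene symbol, as a list of known parts of the type I interferon response, out of 21220 genes that were listed in at least 1 of 14 libraries. All 9 passed the filter for testing, which asked for a value in at least 3 libraries and kept 18110 genes. Libraries came from C57BL6 mice that were either wild-type (KMT2D+/+) or heterozygous mutant (KMT2D+/bGeo, with a bGeo insertion in 1 Kmt2d allele). Mice received the LSD1 inhibitor TAK-418 at 1 mg/kg/day by oral gavage in methylcellulose, or methylcellulose alone (vehicle). The mice were dosed for 2 weeks from the age of 2 weeks, and their listed age is 30 days. The wild types gave 3 libraries with vehicle and 5 with TAK-418, and the mutants gave 3 with each, numbered within each group in deposit order. The allele and the drug reached the whole animal, so no comparison is restricted to one hippocampal cell type.

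Type I interferon signalling starts when sensors such as MDA5, the product of Ifih1, bind double-stranded RNA and switch on interferon genes. Secreted interferon binds its receptor, and the kinases JAK1 and TYK2 phosphorylate STAT2, which joins IRF9 in a complex that binds a short promoter element, the interferon-stimulated response element. The genes it turns on include IRF7, which amplifies the loop, and antiviral effectors such as the IFIT proteins, ISG15, OASL2 and BST2 (tetherin). In healthy brain tissue this response is known to run at a low basal level. KMT2D methylates histone H3 at lysine 4 and LSD1, encoded by Kdm1a, removes methyl groups from that residue.

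The values are transcript abundances per length from the authors' assemblies, weighted by the bases that fall on each gene's reference exons and scaled between libraries, here called scaled abundance. Their unit is not named in the files. The size of the smallest steps between low abundances put the depth of 13 libraries between 0.708 and 1.21 times that of the median library, and that of wild-type TAK-418 library 1 at 3.38 times. All 8 hippocampal neuron markers were listed in every library, with Camk2a between 959 and 1129 and Snap25 between 232 and 985. Their sum was 1632 in wild-type TAK-418 library 1 and 1802 in mutant vehicle library 3, against 2240 to 2411 in the other 12. Camk2a and Snap25 make up most of this sum, so it does not weigh the 8 markers evenly. The lowest Snap25 value, 232, was far below its median of 928.5, while Camk2a at its lowest was at 959 beside a median of 1051. Whether these 2 libraries held fewer neurons was not tested. Kmt2d was at 11.3 ± 1.04 (SD, n = 3) in wild-type vehicle and 10.2 ± 2.00 (SD, n = 3) in mutant vehicle libraries. With TAK-418 the wild types were at 13.0 ± 1.54 (SD, n = 5), and the mutants at 10.3 ± 1.56 (SD, n = 3). Its value covers the whole transcript, so it does not show whether the inserted allele is truncated. Kdm1a lay between 27.7 and 32.1 in all 14 libraries. Choroid plexus genes set 2 libraries apart: Ttr, the transthyretin gene of that epithelium, was at 4000 in mutant vehicle library 1 and 2991 in wild-type vehicle library 3, against 2.86 to 385 in the other 12.

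The promoters of the members show which of them carry the response element in its simplest form. A motif of paired GAAA boxes, GAAANNGAAA, was searched on both strands from 250 bases before to 50 bases after each RefSeq gene start (GRCm38.p6). Overlapping matches were counted. It was present in 3.44% of 32851 such windows, and 0.225% held 2 or more matches. Of the 9 members, 6 held at least 1 match and 4 held 2 or more. Isg15 held 3, Bst2, Ifit1 and Ifit3 held 2 each, and Stat2 and Ifih1 held 1 each. The windows of Irf7, Irf9 and Oasl2 held no match to these letters. Of 27 other interferon-induced genes with a window, 13 held a match. The stretches around the upstream matches are shown 5′ to 3′ on the gene's strand for the 5 members that have them, because they show how closely the boxes of the effectors resemble one another. Capitals mark the matches, which read as GAAA boxes on the shown strand in Isg15 and Bst2 and on the opposite strand (TTTC) in the others. The first match began 78 bases before the start of Isg15 (chr4:156200855-156200916, minus strand), 130 before Bst2 (chr8:71537567-71537622, minus strand), 104 before Ifit1 (chr19:34640765-34640833, plus strand), 156 before Ifit3 (chr19:34583353-34583436, plus strand) and 222 before Stat2 (chr10:128270256-128270305, plus strand).
Isg15: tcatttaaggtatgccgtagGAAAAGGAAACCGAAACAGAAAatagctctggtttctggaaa
Bst2: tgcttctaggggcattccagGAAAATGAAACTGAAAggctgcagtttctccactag
Ifit1: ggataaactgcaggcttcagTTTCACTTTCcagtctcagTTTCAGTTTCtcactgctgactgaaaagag
Ifit3: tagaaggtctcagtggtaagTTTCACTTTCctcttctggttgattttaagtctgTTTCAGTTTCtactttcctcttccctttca
Stat2: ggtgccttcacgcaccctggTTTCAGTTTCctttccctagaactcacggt
The stretch shown for Ifit3 was identical, base for base, at its neighbouring copy Ifit3b (chr19:34607749-34607832, plus strand).

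Levels of the 9 members differed widely within the tissue. Per length and averaged over all 14 libraries, Stat2 was the most abundant at 9.07 ± 0.531 (SD, n = 14), followed by Irf9 at 7.34 ± 0.731 (SD, n = 14). Bst2 followed at 3.32 ± 1.33 (SD, n = 14) and Ifit3 at 2.99 ± 0.600 (SD, n = 14). Isg15 was at 1.44 ± 0.362 (SD, n = 14), Oasl2 at 1.19 ± 0.159 (SD, n = 14), Irf7 at 0.979 ± 0.266 (SD, n = 14) and Ifih1 at 0.564 ± 0.122 (SD, n = 14). Transcripts of the 2 signal-transducing proteins, Stat2 and Irf9, thus stood above those of every effector on average. The Irf9 level rests mostly on transcripts joined to the gene upstream of it, Rnf31. Each pair of members next to one another in the order of means overlapped in range between libraries. Ifit1 was listed in 6 of 14 libraries.

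**Figure D1:**
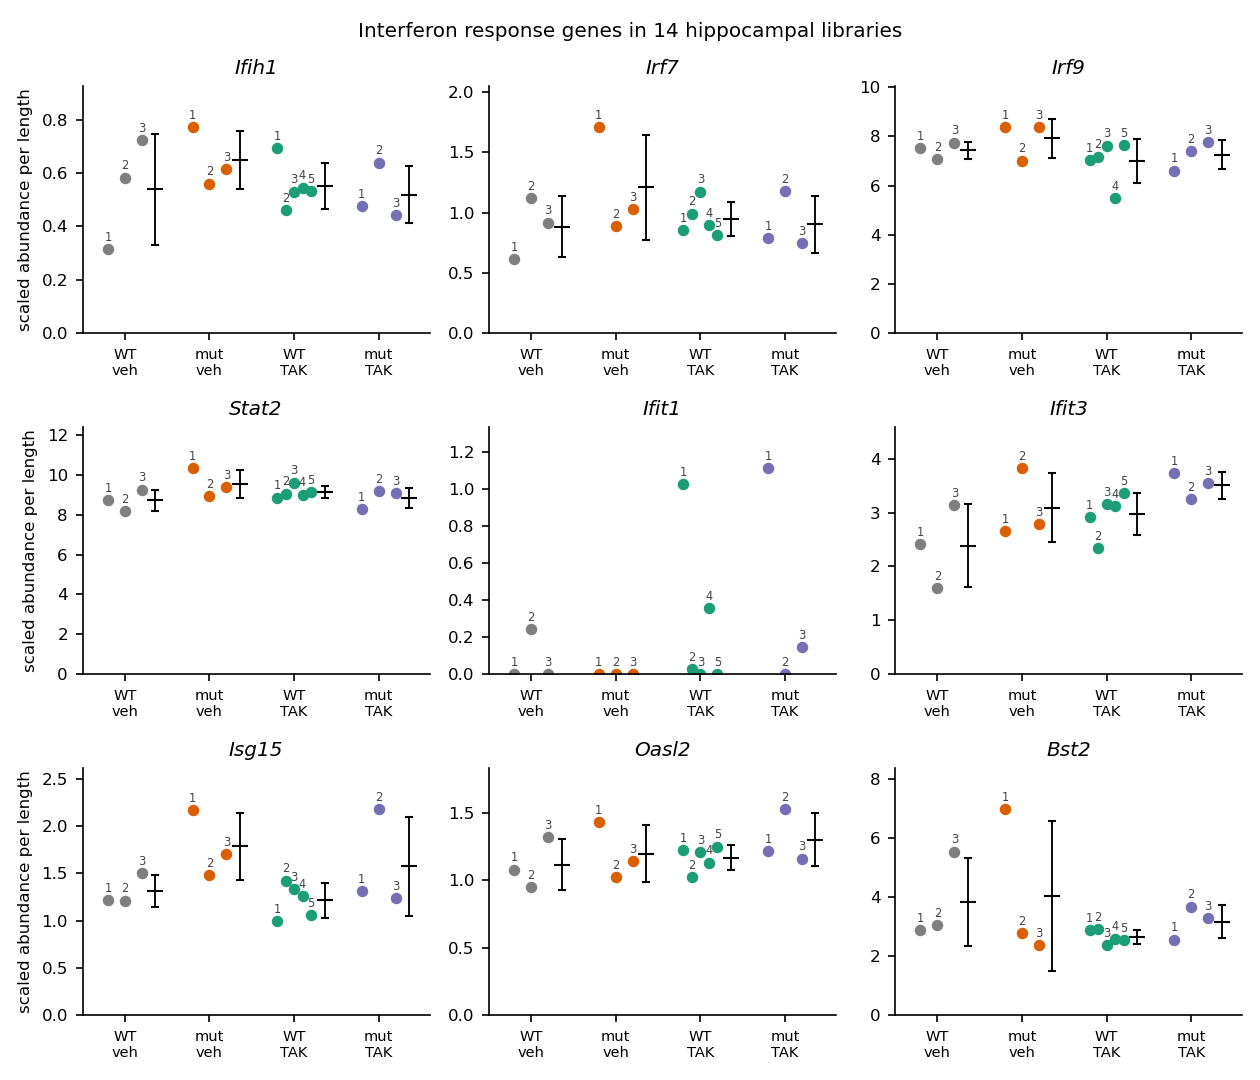
Scaled abundance per length of each of the 9 genes (vertical axes, each starting at 0) in the 4 groups, with 1 point per library, the library number above it, and the group mean with 1 SD in black; Ifit1 has no mean because most of its libraries are listed at 0. Bst2 stands apart in wild-type vehicle library 3 and mutant vehicle library 1 (5.54 and 6.99), while Stat2 stays between 8.19 and 10.3.

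Ifih1, the sensor gene (chromosome 2, 62595798 to 62646255, minus strand, GRCm38; 16 exons), was the lowest of the members listed in every library. Its scaled abundance was 0.314, 0.583 and 0.723 in wild-type vehicle libraries 1 to 3, and 0.773, 0.561 and 0.615 in mutant vehicle libraries 1 to 3. It was between 0.461 and 0.694 in the 5 wild-type TAK-418 libraries and at 0.477, 0.640 and 0.442 in the mutant TAK-418 libraries. The 4 groups overlapped, and wild-type vehicle library 1 was the lowest of all. The 2 choroid plexus-rich libraries held the 2 highest values, 0.773 and 0.723 against at most 0.694 in the other 12. The assemblies broke this long gene into 1 to 5 pieces per library, so its abundance rests on fragments that together cover only part of the transcript in most libraries.

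Among the transcription factor genes, Irf7 (chromosome 7, 141262706 to 141266481, minus strand), the amplifier of interferon production, was highest in mutant vehicle library 1. The scaled values were 0.613, 1.12 and 0.915 in wild-type vehicle libraries and 1.71, 0.886 and 1.03 in mutant vehicle libraries. It ranged from 0.813 to 1.17 in wild-type TAK-418 libraries, with a median of 0.894, and was 0.787, 1.18 and 0.748 in mutant TAK-418 libraries. Outside mutant vehicle library 1, the groups covered nearly the same range.

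Stat2 (chromosome 10, 128270559 to 128292849, plus strand; 24 exons), which carries the signal from the receptor to the nucleus, varied least of the members. Its scaled abundance was 8.72, 8.19 and 9.26 in wild-type vehicle libraries and 10.3, 8.93 and 9.38 in mutant vehicle libraries. It was 8.85 to 9.62 in the treated wild types and 8.28, 9.20 and 9.10 in mutant TAK-418 libraries. The coefficient of variation over the 14 libraries was 5.86%, against 2.25% for counting error alone at its median of 1974 reads. Those read numbers are the abundance on the reference exons divided by the library's smallest step.

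Irf9 (chromosome 14, 55603571 to 55610030, plus strand), the DNA-binding partner of STAT2, cannot be separated here from the gene upstream of it, Rnf31, which encodes a ubiquitin ligase subunit. In 13 of 14 libraries the assembly held at least 1 transcript joining both genes. The scaled abundance was 7.51, 7.07 and 7.74 in wild-type vehicle libraries. Mutant libraries were at 8.36, 7.01 and 8.37 with vehicle and at 6.61, 7.39 and 7.76 with TAK-418. In wild-type TAK-418 libraries it ran from 5.48 to 7.65. The lowest, library 4, was the only one with no joint transcript, and Rnf31 was at 8.50 there, against 7.07 to 8.25 in the other 13 libraries. The authors' deposited tables also list the pair as 1 locus.

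Isg15 (chromosome 4, 156199424 to 156200818, minus strand; 2 exons) encodes a ubiquitin-like protein that is attached to other proteins. The scaled values were 1.22, 1.21 and 1.51 in wild-type vehicle libraries and 2.17, 1.48 and 1.70 in mutant vehicle libraries. It was 0.991 to 1.42 in wild-type TAK-418 libraries, and 1.31, 2.18 and 1.24 in mutant TAK-418 libraries. Under both treatments the mutant mean was the higher: 1.79 ± 0.351 (SD, n = 3) against 1.31 ± 0.168 (SD, n = 3) with vehicle, and 1.58 ± 0.524 (SD, n = 3) against 1.21 ± 0.183 (SD, n = 5) with TAK-418. The ranges overlapped in both cases, and the values rest on 40.7 to 126 reads per library.

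Ifit3 (chromosome 19, 34583531 to 34588731, plus strand), belongs to a family of proteins that bind foreign RNA, and its group means were lowest in wild-type vehicle libraries (2.38 ± 0.771, SD, n = 3) and highest in mutant TAK-418 libraries (3.51 ± 0.244, SD, n = 3). Its scaled abundance was 2.41, 1.60 and 3.14 in wild-type vehicle libraries, the last of these close to the mutant values. In mutant vehicle libraries it was 2.66, 3.83 and 2.79. With TAK-418 it was 2.34 to 3.36 in wild types and 3.73, 3.24 and 3.54 in mutants. All 3 mutant TAK-418 values lay above all 3 wild-type vehicle values, a pair of groups that differ in genotype and drug at once. That pair was not among the contrasts fitted here with limma. The authors' deposited table of this pair lists Ifit3 only in a joint locus with Ifit2. That locus was at 3.89 FPKM in wild-type vehicle and 4.19 FPKM in mutant TAK-418, with a log2 ratio of 0.11 and an authors' q-value of 0.9997. The share of all genes separated in this way was not computed, so the separation cannot be called particular to Ifit3. Ifit3b was listed at 0 in 4 libraries and at 0.920 to 2.03 in the others, so reads of the near-identical pair may be split differently between libraries. Summed with Ifit3b, the mutant TAK-418 values were 3.73, 3.24 and 5.02 and the wild-type vehicle values 2.41, 2.52 and 5.12, and these ranges overlapped.

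Ifit1 (chromosome 19, 34640871 to 34650009, plus strand) was listed at 0 in all 3 mutant vehicle libraries, in wild-type vehicle libraries 1 and 3, in wild-type TAK-418 libraries 3 and 5, and in mutant TAK-418 library 2. It was listed at 0.243 in wild-type vehicle library 2 and at 1.03, 0.0267 and 0.358 in wild-type TAK-418 libraries 1, 2 and 4. In mutant TAK-418 libraries 1 and 3 it was at 1.11 and 0.147. A 0 here means that no transcript was assembled. The authors' deposited tables give the Ifit1 locus 0.656 to 0.762 FPKM in every group, mutant vehicle included, over a locus (34592888 to 34662392) that is longer than the gene. No fold change of Ifit1 is therefore given from the assemblies.

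Oasl2 (chromosome 5, 114896936 to 114912234, plus strand), a member of the oligoadenylate synthetase family, spanned 0.947 to 1.53. With vehicle it was 1.08, 0.947 and 1.32 in wild types and 1.43, 1.02 and 1.14 in mutants. With TAK-418 it was 1.02 to 1.25 in wild types and 1.22, 1.53 and 1.16 in mutants. The groups overlapped throughout.

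Bst2 (chromosome 8, 71534255 to 71537456, minus strand), which encodes the membrane protein tetherin, had the largest spread of the members listed in every library, a coefficient of variation of 40.1% against 9.05% for counting error. Its scaled abundance was 2.88, 3.04 and 5.54 in wild-type vehicle libraries and 6.99, 2.78 and 2.38 in mutant vehicle libraries. With TAK-418 it was 2.37 to 2.91 in wild types and 2.55, 3.68 and 3.28 in mutants. The 2 high libraries were those with Ttr at 4000 and 2991. In them all 10 choroid plexus markers exceeded every other library, while mutant vehicle library 3 and mutant TAK-418 library 1, with Ttr at 385 and 254, had Bst2 at 2.38 and 2.55. Whether choroid plexus tissue contributed the Bst2 signal was not tested. In bulk tissue, more cells of a type and more RNA per cell cannot be told apart.

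**Figure D2:**
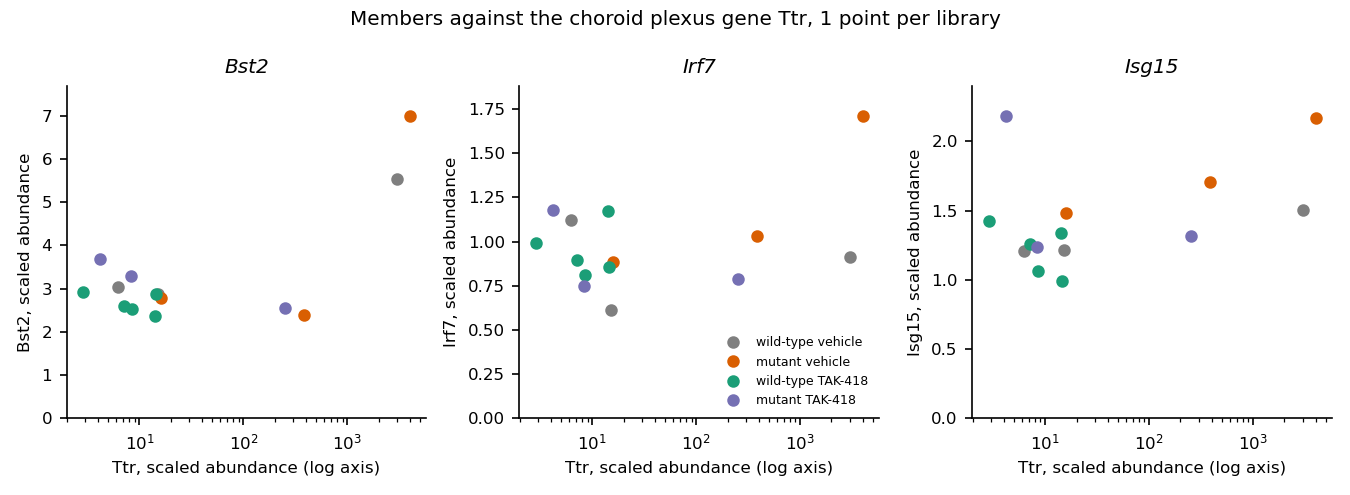
Scaled abundance of Bst2, Irf7 and Isg15 (vertical axes) against that of the choroid plexus gene Ttr (log axis), with 1 point per library coloured by group. The 2 libraries with Ttr at 2991 and 4000 hold the 2 highest Bst2 values, while Isg15 is as high (2.18) in a library with Ttr at 4.19.

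The mutation was compared with wild type first in vehicle-treated mice. The highest and lowest differences given for each contrast are among the 8 members listed in every library, without Ifit1. Isg15 had the highest difference, 0.38 on the log2 scale with a 95% interval of -0.07 to 0.84, and Bst2 the lowest, -0.02 with an interval of -0.76 to 0.73. Ifit3 was at 0.38, with an interval of -0.08 to 0.84, and Irf7 at 0.36, with an interval of -0.17 to 0.90. The Ifit3 difference was 0.14 without wild-type vehicle library 2, 0.22 without mutant vehicle library 2 and 0.59 without wild-type vehicle library 3. It was 0.68 without both choroid plexus-rich libraries. The unadjusted limma p of Ifit3 was under 0.05 in 5 of 27 alternatives, with differences of both signs among them. The Irf7 difference was 0.12 without mutant vehicle library 1, 0.17 without wild-type vehicle library 1 and -0.05 with whole-transcript matching. Without mutant vehicle library 1 the Isg15 difference was 0.25, and that of Bst2 ranged from -0.48 to 0.27 as single libraries were left out. Of the 8 members listed in every library, 7 had the higher value in mutants, with a median of 0.18 beside 0.00 over all genes. No member was called at an adjusted p under 0.05 (limma with Benjamini-Hochberg adjustment over 18110 genes), where 0.011% of genes were called, and none had an unadjusted p under 0.05, where 5.2% of genes did. The smallest adjusted p among members was 0.982. Differences are on the log2(scaled abundance + 0.2) scale, which understates changes of low genes.

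Under TAK-418, the same comparison of mutants with wild types gave differences between -0.07 for Ifih1 and 0.30 for Isg15. The interval for Isg15 was -0.11 to 0.71, and 5 of 8 members were higher in mutants. None of the 9 members was called, against 0.0166% of genes, and none had an unadjusted p under 0.05, against 5.31% of genes. The smallest adjusted p was 0.922. The Ifih1 value changed sign without mutant TAK-418 library 3 and under other transcript matching, and the Isg15 value did so with abundance multiplied by length. Without mutant TAK-418 library 2 the Isg15 difference was 0.07.

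TAK-418 was then compared with vehicle in wild types. Ifit3 was the highest at 0.34 with an interval of -0.08 to 0.75, and Bst2 the lowest at -0.44 with an interval of -1.11 to 0.23. Without wild-type vehicle library 3, 1 of the choroid plexus-rich pair, the Bst2 difference was -0.15 and the Ifit3 difference 0.54. Without wild-type vehicle library 2 the Ifit3 difference was 0.10. The unadjusted limma p of Ifit3 was under 0.05 in 2 of 27 alternatives. No member was called, against 0.0276% of genes, and none had an unadjusted p under 0.05, against 8.6% of genes. The smallest adjusted p was 0.645.

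In mutants, TAK-418 gave differences between -0.33 for Irf7, with an interval of -0.86 to 0.21, and 0.19 for Ifit3, with an interval of -0.28 to 0.65. Of 8 members, 6 had a lower mean log2 value with the drug, a median of -0.15 beside 0.00 over all genes. None of the 9 members was called, against 0.0276% of genes, and none had an unadjusted p under 0.05, against 4.58% of genes. The smallest adjusted p was 1.0. Without mutant vehicle library 1, which is choroid plexus-rich, the Irf7 difference was -0.09 and the Ifit3 difference 0.09. Without mutant vehicle library 2 they were -0.49 and 0.34, and without mutant TAK-418 library 2 that of Irf7 was -0.50.

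The interaction asks whether the drug effect differed between genotypes. It ran from -0.43 for Irf7, with an interval of -1.15 to 0.29, to 0.25 for Bst2, with an interval of -0.75 to 1.25. No member was called, against 0.0166% of genes, and none had an unadjusted p under 0.05, against 4.23% of genes. The smallest adjusted p was 0.996. The sign of the Bst2 interaction turned without wild-type vehicle library 3 or mutant vehicle library 3, and that of Irf7 under whole-transcript matching. The Irf7 interaction was -0.19 without mutant vehicle library 1 and -0.24 without wild-type vehicle library 1, and the Bst2 interaction 0.71 without mutant vehicle library 1.

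Averaged over treatments, all 8 members listed in every library had a higher mean log2 value in mutants, from 0.04 for Stat2 to 0.34 for Isg15, with a median of 0.11 beside 0.00 over all genes. The share of all genes higher in mutants was not computed. The members tended to vary together across libraries (median r of 0.44 over their pairs), so counts of direction, here and in the single contrasts, are not counts of separate observations. Isg15, with an SE of 0.14 and an interval of 0.04 to 0.65, was the 1 member with an unadjusted p under 0.05, which 5.9% of all genes had. That p was not under 0.05 in 12 of 26 alternatives, among them unscaled libraries and 4 other ways of choosing transcripts, and without mutant TAK-418 library 2 the difference was 0.23. The adjusted limma p of Isg15 was 0.796, and no member was called, against 0.0166% of genes. Stat2 was lower in mutants (-0.05) when libraries were left unscaled and with the highest transcript alone (-0.16). Averaged over genotypes, the drug differences ran from -0.31 for Bst2 to 0.26 for Ifit3. None of the 9 members was called, against 0.0552% of genes, and none had an unadjusted p under 0.05, against 8.1% of genes; the smallest adjusted p was 0.662. The averaged Bst2 difference was 0.06 without both choroid plexus-rich libraries, -0.17 without wild-type vehicle library 3 and -0.08 without mutant vehicle library 1. The averaged Ifit3 difference was 0.14 without wild-type vehicle library 2, and its unadjusted limma p was under 0.05 in 6 of 26 alternatives.

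**Figure D3:**
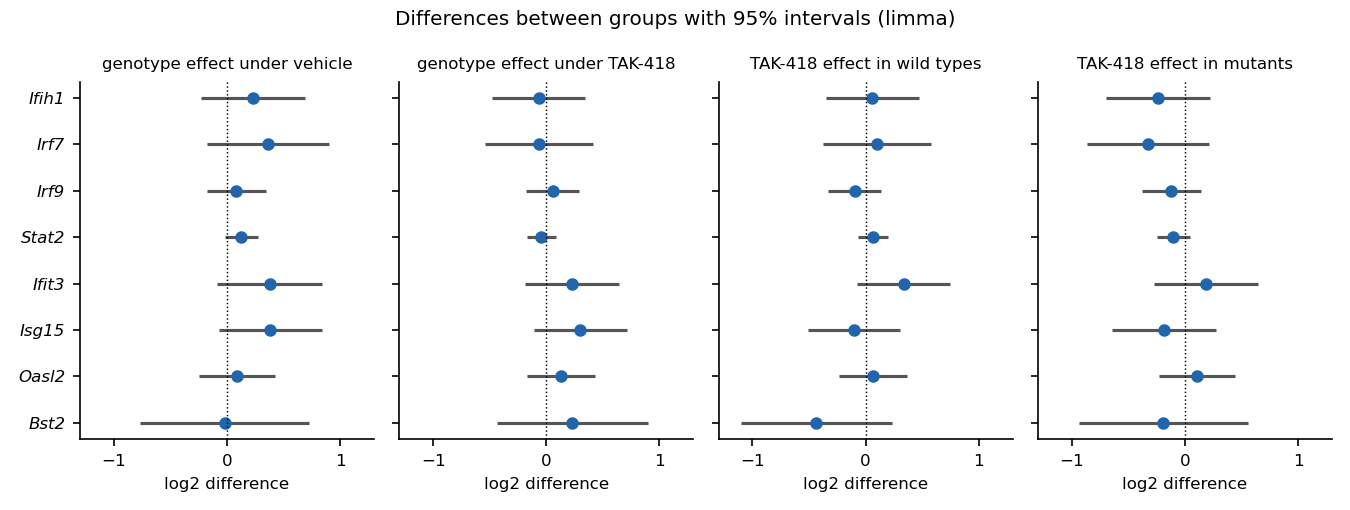
Log2 differences (points) with 95% intervals (lines) of the 8 members listed in every library, for the genotype effect under each treatment and the TAK-418 effect in each genotype, from limma. Every interval crosses 0, and the widest belong to Bst2, for example -1.11 to 0.23 for TAK-418 in wild types.

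The authors' deposited tables give 1 FPKM per group and their own tests over 81411 loci each. They name the members in 11 entries, 10 of them tested in each table. Ifit3 stands there in a joint locus with Ifit2, and Irf9 with Rnf31. Isg15 has 2 entries over the same span (chromosome 4, 156165290 to 156255998), 1 named alone and 1 with AW011738, Agrn and Perm1. That span is longer than the Isg15 gene. No member locus had a q-value under 0.05 in any table. The share of tested loci under that q was 0.224% for vehicle mutants against vehicle wild types, 0.218% for treated mutants against treated wild types, 0.611% for vehicle mutants against treated wild types and 0.324% for treated mutants against vehicle wild types. At an unadjusted p under 0.05 the shares were 4.32%, 4.1%, 6.48% and 4.49% in the same order, and 1 member locus met it, in the third table. That locus was Bst2, which the authors' deposited table gives 4.74 FPKM in vehicle mutants and 3.07 FPKM in treated wild types, with a log2 ratio of 0.63, p = 0.0005 and q = 0.0753. These 2 groups differ in genotype and drug, and the vehicle mutants include library 1, where Bst2 was at 6.99 against 2.78 and 2.38 in the other 2. In the authors' deposited table of vehicle groups, Bst2 was at 4.36 FPKM in wild types and 4.73 FPKM in mutants. The entry named Isg15 alone was at 1.74 and 2.18 FPKM, and the authors' q-values were 0.9998 for both. The 4 tables share group values, so they are not independent of one another.

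Ifit3 depended on how transcripts were matched to genes. In mutant vehicle library 2 the assembled Ifit3 transcript had another first exon, and in mutant vehicle library 3 both transcripts over it joined Ifit2 and Ifit3. A rule that sums whole transcripts sharing an annotated Ifit3 intron lists the gene at 0 in these 2 libraries and at 1.90 to 3.98 in the other 12. With that rule the genotype difference under vehicle was -1.20 (limma, adjusted p = 0.820) and the TAK-418 difference in mutants 1.71 (adjusted p = 0.578), both under 0.05 before adjustment. With bases on the reference exons the same 2 differences were 0.38 and 0.19. With abundance multiplied by transcript length they were -1.80 and 2.42. With multi-exon transcripts only, the genotype difference under vehicle was 1.41, and the TAK-418 difference in wild types was 1.37 in place of 0.34. The only Ifit3 transcript of wild-type vehicle library 2 had a single exon, so that rule lists this library at 0. Its value of 1.60 by bases on the reference exons rests on that 1 piece.

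**Figure D4:**
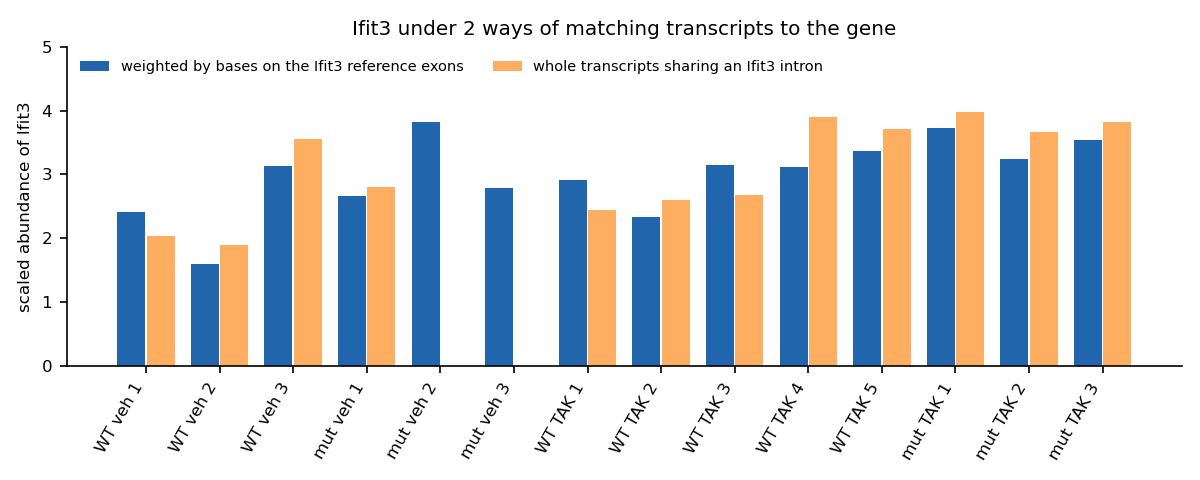
Scaled abundance of Ifit3 in each of the 14 libraries when transcripts are weighted by their bases on the Ifit3 reference exons (blue) or counted whole if they share an annotated Ifit3 intron (orange). The orange bars are at 0 in mutant vehicle libraries 2 and 3, where the blue bars are at 3.83 and 2.79.

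Whether the members vary together from mouse to mouse was examined over the 28 pairs of the 8 members listed in every library. Of these, 25 had a positive Pearson's r of log2 values, with a median of 0.44 and a range from -0.26 to 0.70. Irf7 correlated with Ifih1 at r = 0.70 (permutation p = 0.007, adjusted p = 0.0980) and Spearman's rho = 0.61 (permutation p = 0.0233, adjusted p = 0.163). Irf7 correlated with Isg15 at r = 0.70 (permutation p = 0.00584, adjusted p = 0.0980) and rho = 0.64 (permutation p = 0.0167, adjusted p = 0.163). No pair passed an adjusted p of 0.05 over the 28 by either measure, with 8 pairs under an unadjusted permutation p of 0.05 by r and 6 by rho. Leaving out the 2 libraries farthest from the median of the first gene of each pair lowered the median r to 0.17, and r was then 0.32 for Irf7 with Ifih1 and 0.55 for Irf7 with Isg15. Without the 2 choroid plexus-rich libraries the median was 0.19. Most of these correlations were thus weaker without a few libraries. All 3 negative values involved Ifit3, whose r with the others ran from -0.26 to 0.43.

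**Figure D5:**
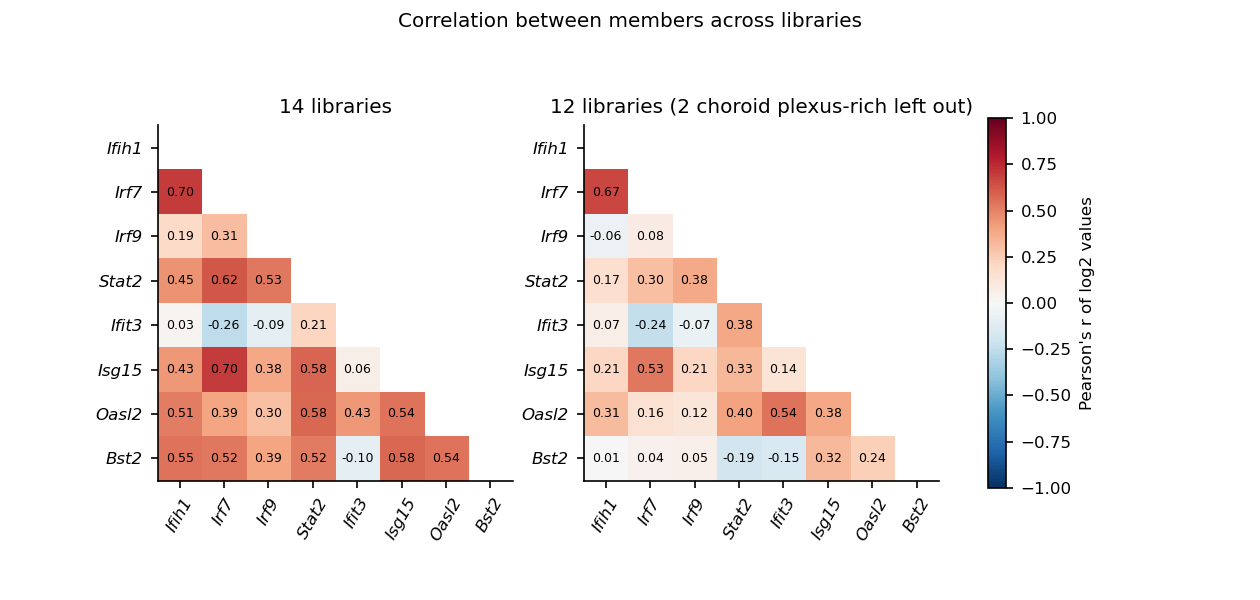
Pearson's r of log2 values for each pair of the 8 members listed in every library, over all 14 libraries (left) and over 12 after leaving out the 2 choroid plexus-rich libraries (right); red is positive and blue negative. The median of the 28 values falls from 0.44 to 0.19, while Irf7 with Ifih1 stays at 0.67.

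After scaling, each of the 8 members had its highest value in a mutant library. For 4 of them (Irf7, Stat2, Bst2 and Ifih1) it was mutant vehicle library 1 and for 2 (Isg15 and Oasl2) mutant TAK-418 library 2. The lowest value was in a wild-type vehicle library for 5. The share of all genes with their highest value in these libraries was not computed, so the counts cannot be called particular to the members. They depend on scaling, since those 2 mutant libraries had the lowest scale factors, 0.834 and 0.910. The mean standardised value of the 8 members was 1.63 and 0.840 in those 2 libraries, and next highest, 0.653, in wild-type vehicle library 3. Without scaling 5 of 8 members were highest in a mutant library, 1 of them in mutant vehicle library 1 and 2 in mutant TAK-418 library 2. In mutant TAK-418 library 2 choroid plexus genes were low (Ttr at 4.19), and the 5 meningeal fibroblast markers had their highest sum, 52.2 against 33.5 to 45.3 in the other 13 libraries. Dcn makes up most of that sum. It ranged from 21.3 to 39.1 over the libraries, whereas no other marker of this list exceeded 5.705 in any library. Microglia markers summed to 205 in mutant vehicle library 1 and 201 in mutant TAK-418 library 2, within the 194 to 244 of all 14. Erythroid markers had their highest sum in mutant vehicle library 1, 384 against 110 to 318 in the other 13 libraries, and were at 161 in mutant TAK-418 library 2. The 9 leukocyte markers summed to 1.77 and 1.18 in these 2 libraries, within the 0.588 to 1.98 of all 14. Ptprc was listed in every library, 5 others in some, and the T-cell genes Cd3e, Cd3d and Cd8a were at 0 in all 14. The part of these cell types in the values of the members was not tested.

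The 10 genes whose log2 values followed the mean standardised value of the 8 members most closely, among 14317 genes listed in every library, were Ccdc113, Ttc25, Col18a1, Kif9, Aebp1, Cabcoco1, Fam161a, Tubb4b, Pltp and Evc. Their r over 14 libraries ran from 0.86 to 0.91. None belongs to the interferon pathway lists used here. Ccdc113 spanned 0.775 to 3.49 over the libraries. Without the 2 choroid plexus-rich libraries, r was 0.85 for Ccdc113, 0.79 for Col18a1 and 0.60 for Evc.

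The rest of the pathway gives the setting of the members. No transcript was assembled in any library for the 10 interferon ligand genes examined, Ifnb1, Ifna1, Ifna2, Ifna4, Ifna5, Ifng, Ifnk, Ifne, Ifnl2 and Ifnl3. All 8 receptor and kinase genes were tested, led by Jak1 with a median scaled abundance of 44.0, Ifngr2 at 23.4 and Ifnar1 at 14.1. Of 8 further transcription factors 6 were tested, with Irf2 at 13.9 and Irf3 at 8.15. Among 7 tested sensors, Tlr3 led at 4.30, above Aim2 at 1.70 and Ddx58, which encodes the RNA sensor RIG-I, at 1.55. The adaptors and kinases of sensing were led by Traf3 at 26.6 and Tbk1 at 22.7, with Traf6 at 5.21. Genes that restrain nucleic acid sensing were higher, with Trim28 at 47.8, the RNA-editing gene Adar at 34.9 and Setdb1 at 14.6. Negative regulators were led by the phosphatase gene Ptpn11 at 47.6, with Pias1 at 19.0 and Ptpn6 at 1.72. Of 36 other interferon-induced genes 34 were tested, led by Ifi27 at 24.6, Cmpk2 at 8.66 and Ifitm3 at 7.98. The 11 antigen presentation genes, all tested, were led by B2m at 68.6, Psme1 at 25.6 and Psme2 at 19.4.

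None of the 88 tested genes of these lists, out of 103, was called in any of the 7 contrasts (limma). An unadjusted p under 0.05 was met by 5 of them for the genotype under vehicle (5.68%, against 5.2% of all genes) and by 8 for the genotype under TAK-418 (9.09% against 5.31%). For the drug it was met by 5 in wild types (5.68% against 8.6%) and by 8 in mutants (9.09% against 4.58%), and for the interaction by 5 (5.68% against 4.23%). The averaged genotype effect had 8 (9.09% against 5.9%) and the averaged drug effect 7 (7.95% against 8.1%). The averaged genotype differences held 6 higher genes (Il10rb, Gbp3, Rtp4, Gbp7, H2-K1 and H2-D1) and 2 lower (Irf5 and Irf2), named here after their values were seen. H2-K1, an MHC class I heavy chain gene, was 0.27 higher in mutants (SE 0.08, limma, adjusted p = 0.733). The guanylate-binding protein gene Gbp7 was 1.45 higher under vehicle in mutants (SE 0.37, limma, adjusted p = 0.677) and 1.72 higher with TAK-418 in wild types (SE 0.33, limma, adjusted p = 0.184). Both differences are taken from the same wild-type vehicle libraries, so they are not independent. The Gbp7 interaction was -1.27 (SE 0.50, limma, adjusted p = 0.996). The median difference of the 34 other interferon-induced genes was 0.14 for the genotype under vehicle and 0.07 for the drug in wild types, beside 0.00 and 0.01 over all genes. These 2 medians also share the wild-type vehicle libraries and are not independent. In the other contrasts the median ran from -0.03 for the interaction to 0.08 for the averaged genotype effect.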

How the data were processed

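RNA-seq libraries of total hippocampal RNA (NEBNext kits, per the labels' protocols) were aligned to mm10 with TopHat2 2.1.0 after FastQC, per the submitters' processing notes. Per the file headers, transcripts were assembled in each library with CLASS 2.1.7, and the deposited Abundance of a transcript is a score whose unit is not named. The deposited group tables give the authors' FPKM, log2 fold changes, p-values and q-values per pooled group. The software behind those tables is not given in the sources used here. Recomputed log2 ratios of tested loci differed from the deposited ones by at most 3.66e-05, and each of the 14 libraries correlated best with its own group's column over 8154 genes.

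For each GENCODE M21 gene, abundances were weighted by the bases on the exons of its reference transcript and divided by that transcript's length. This measure was chosen after seeing that matching by shared introns listed Ifit3 at 0 in 2 libraries. Values were scaled by median of ratios, a pseudocount of 0.2 was added, and limma 3.58.1 in R 4.3.3 was fitted to 18110 genes over all 14 libraries with 4 group means and a trended prior. The step was tested on simulated data. Correlations used 100000 permutations. Low single-exon abundances were whole multiples of 1 step per library in 90 to 96.5% of cases (within 0.1 of a step), which gave the relative depths. Counting errors cover counting only. Replicate numbers follow deposit order and pair nothing, and where libraries are not separate mice, which the labels do not state, p-values measure only the spread between these libraries. The series text gives 3 to 4 mice per group, whereas 5 wild-type TAK-418 libraries were present. Members were given in every group; for a contrast a member is named where its unadjusted p is under 0.05, and the lowest and highest, Ifit3, Bst2 and Irf7 were added after their values were seen. Of each pathway list the 3 genes with the highest mean are named, except 1 transcription factor that is not reported here. The members and lists were chosen with earlier results of these data known. Alternatives changed the pseudocount, the gene filter, scaling, transcript choice, samples and weights.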

Additional observations from a re-analysis of the deposited data

Results flagged for a closer look

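Irf9 was lowest in wild-type TAK-418 library 4, at 5.48 scaled abundance, farther below the other 4 libraries of its group (7.03 to 7.65) than Dixon's 95% critical value of 0.71 for 5 samples allows. It was the only library without a transcript joining Irf9 to Rnf31, and Rnf31 was at 8.50 there, the highest of the 14. The part of the assembly in this low value was not tested. The screen covered 9 members in 1 group. Chance flags about 1 in 20 for each member screened, so 1 flag among the 9 is not unusual.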

How the results depend on the processing

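No member was called in any of the 7 contrasts under any of the 186 combinations of contrast and alternative run, with smallest adjusted p-values between 0.41 and 1.0 (limma) and at most 2 members under an unadjusted p of 0.05. Leaving out each library in turn left the count at 0 throughout. In the authors' deposited tables, an unadjusted p under 0.05 in place of q gave 1 member locus, and a q under 0.01 gave 0. No correlated pair passed with group means subtracted or without the 2 farthest libraries. The 16 differences of named members rerun were the highest and lowest of each contrast, and Ifit3 and Irf7 where added. Their direction and side of an adjusted p of 0.05 were kept in 408 alternatives, many of which could not change the direction. A changed gene filter, or leaving out a library outside the contrast, returns the same difference, and no member came under that threshold. Per difference, 2 to 12 of the 26 or 27 alternatives moved it by over 1.5 times or turned it. The direction turned in 18 alternatives, and the differences concerned follow. Those of Bst2 for the genotype under vehicle became 0.00653 with a pseudocount 10 times larger and 0.0352 with whole transcripts, and without 1 library each ranged from -0.48 to 0.27, turning to 0.16 without mutant vehicle 2, 0.26 without mutant vehicle 3 and 0.27 without wild-type vehicle 3. The Bst2 interaction became -0.0399 without wild-type vehicle 3 and -0.0332 without mutant vehicle 3, reached 0.706 without mutant vehicle 1, and its averaged drug difference became 0.0593 without both choroid plexus-rich libraries. Ifih1 for the genotype under TAK-418 became 0.0494 with the highest transcript and 0.00996 with whole transcripts, and without 1 library each ranged from -0.184 to 0.00979, turning without mutant TAK-418 3. With whole transcripts Irf7 for the genotype under vehicle became -0.0501 and the Irf7 interaction 0.107, while Stat2 for the averaged genotype became -0.0527 unscaled and -0.16 with the highest transcript, and Isg15 for the genotype under TAK-418 -0.0133 with abundance times length. Ifit3 for the genotype under vehicle became -1.80 with abundance times length and -1.20 with whole transcripts, where it was listed at 0 in 2 libraries. The cause of the other reversals was not tested. Group means moved by more than 1 SD in 35 of 306 alternatives; abundance times length was not run for them because its unit differs. The weighting by bases on reference exons was itself chosen after seeing that whole-transcript matching listed Ifit3 at 0 in 2 libraries, and whole-transcript matching was then kept as an alternative. No paired analysis was possible because replicate numbers are in deposit order. Isg15 rests on 40.7 to 126 reads a library, a counting error of 13.4% beside a spread of 25.3% over the libraries.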
